A study of Solanum lycopersicum with 24 samples.

Results

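The comparison described here is the heat response of susceptible tomato plants (Solanum lycopersicum), 3 arrays of heated plants against 3 arrays of control plants, which are 6 of the 24 arrays of the series. Its members were taken by sample title, and all 10038 tomato probe sets of the array were tested. The series profiled leaves at the flowering stage on an Affymetrix array in a heat and in a drought experiment, each with a susceptible and a tolerant genotype. Heated plants of the susceptible genotype were held at 40 C for 60 min in a growth chamber just before sampling, whereas their control plants were kept unstressed in a greenhouse. Heat and the move into a chamber cannot be told apart in this design. Tolerant plants of the heat experiment were heated and kept in the same way, and susceptible plants of the drought experiment were sampled after 7 days without water or as unstressed controls. The labels name neither the cultivars nor any allele, and they do not say that the 2 experiments used the same susceptible genotype. Nothing in them tells whether the 3 replicates were separate plants. Each p-value therefore reflects only how far these samples spread, and that spread may be technical.

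Heat unfolds proteins, and plant cells answer within minutes through heat stress transcription factors that switch on genes for chaperones. Small heat shock proteins hold unfolded proteins in a soluble state, and the ATP-driven HSP70 and HSP90 machines with their DnaJ partners refold them. Plants have separate small heat shock proteins for the cytosol, the chloroplast, the mitochondrion and the endoplasmic reticulum. In leaves, brief heat is also known to alter sugar use, growth and the hormone pathways that govern defence.

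Values are log2 expression levels per probe set, and differences are heated minus control on the log2 scale, with the standard error of the limma fit after the ± sign. Calls required an adjusted p under 0.05 and a difference of at least 1. By that rule 434 probe sets (4.32% of those tested) were higher and 336 (3.35%) were lower in heated plants, together 7.67%. The 3 heated and 3 control arrays did not overlap in any of the 770, while groups without overlap made up 54.8% of all probe sets. At an adjusted p under 0.05 without the size limit, 2427 were higher (24.2%) and 2003 lower (20%), together 44.1%. Differences of at least 2 were held by 104 higher and 75 lower probe sets, and differences of at least 4 by 12 higher and 1 lower. Centring the arrays on their medians moved the median difference of all probe sets to -0.10 and turned the split to 375 higher and 415 lower, so the balance of directions depends on the scaling.

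Replicates correlated at 0.9967 to 0.9983 in heated plants and 0.9967 to 0.9979 in control plants, and heated with control arrays at 0.9693 to 0.9712. A measure of RNA integrity was the gap between the 3' and 5' probe sets of the GAPDH control. It was 0.80 ± 0.08 in heated and 1.60 ± 0.09 in control plants (SD, n = 3 each). Heated minus control, that gap differed by -0.80, beside -0.32 for the actin control, -0.18 for EF1-alpha and -0.34 for ubiquitin. The part of these gaps in the results was not tested. Reporter probe sets, made for genes that tomato lacks, had a median level of 3.42 ± 0.09 in heated and 3.54 ± 0.04 in control plants, and none differed by 1 or more. They served as a gauge of background: where the dimmer group lay within their range, the difference is given as a bound, which applied to 68 of the higher and 40 of the lower calls. In a further 8 higher and 9 lower calls the brighter group lay there too, so no size can be given for them. Of 15 leaf marker probe sets none was called, 2 were at reporter level in heated and control plants alike, and their summed signal was 15.75 to 15.87 in heated and 15.72 to 15.77 in control plants (log2). In such whole-leaf samples, fewer cells of a type and less RNA per cell cannot be told apart.

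Names were available for 459 probe sets of 411 genes, all from the authors' deposited tables. Of these, 201 were listed in the heat table, which holds probe sets chosen on these same arrays for a genotype-dependent response and a fold of 2 or more, and 95 of the 201 (47.3%) were called here. The other 258 were listed only in the drought table, whose choice did not use these arrays, and 26 of them were called (10.1%). Counts over heat-table names are therefore not independent evidence of a response, and the drought-table names are given apart where they bear on a group. Every list count below stands beside shares of 4.32% higher and 3.35% lower over all probe sets. A few calls in a list are no result about that list.

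**Figure D1:**
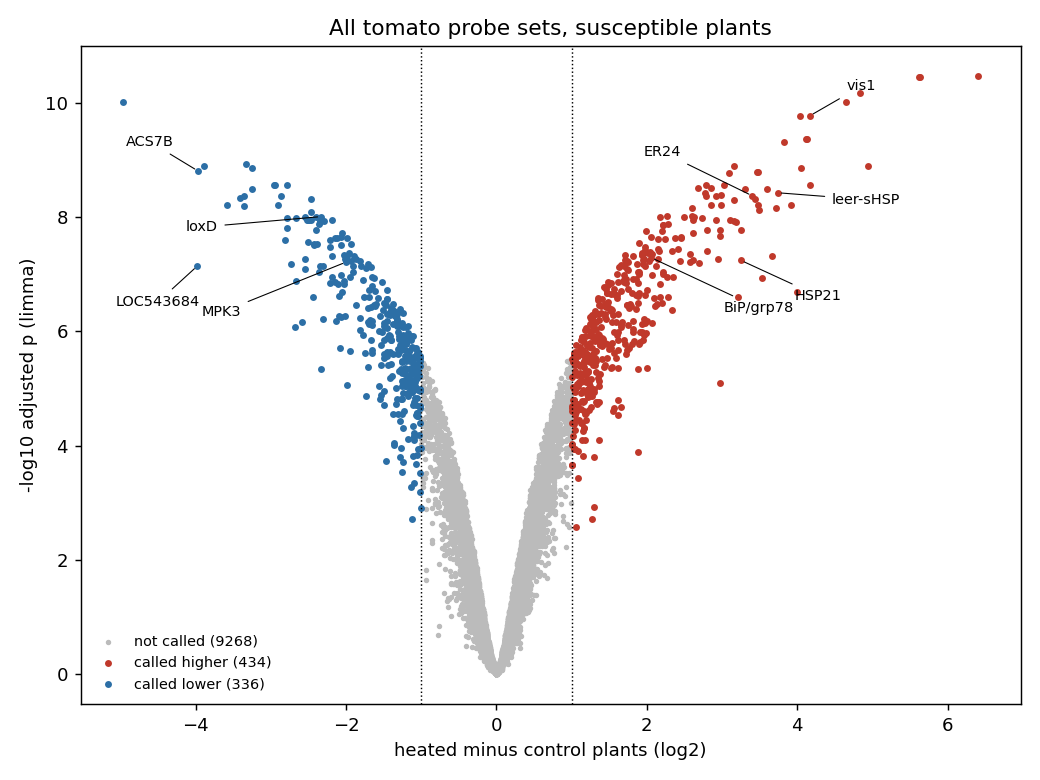
Each point is 1 of the 10038 tomato probe sets, with heated minus control plants on the x axis (log2) and -log10 of the adjusted p from limma on the y axis. Red marks the 434 called higher, blue the 336 called lower, and dotted lines the size limit of 1; vis1 and ER24 stand far to the right, ACS7B and LOC543684 far to the left.

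Small heat shock proteins rose as a whole group: all 5 named genes were called higher, with a median difference of 3.25 against 0.00 over all probe sets. The gene vis1, a small heat shock protein studied in ripening fruit, read 11.73, 11.80 and 11.75 in heated plants, against 7.62, 7.61 and 7.53 in control plants. Heated arrays stood far above control arrays, a difference of 4.17 ± 0.08 or 18.1-fold (adjusted p = 1.69e-10). It was the largest rise of any named gene. A second gene titled only as small heat shock protein, leer-sHSP, had 11.99, 11.85 and 12.13 in heated plants, against 8.07, 8.32 and 8.38 in control plants, and rose by 3.74 ± 0.11 (adjusted p = 3.77e-09). HSP21, the small heat shock protein of the chloroplast, read 12.35, 12.35 and 12.31 in heated plants, against 8.71, 9.20 and 9.35 in control plants. Its 3 heated arrays lay close together, the control arrays were more spread, and the rise was 3.25 ± 0.14 (adjusted p = 5.74e-08). The mitochondrial member LEMTSHP had 11.93, 11.98 and 11.93 in heated plants, against 9.13, 9.06 and 8.89 in control plants, a rise of 2.92 ± 0.09. HSP17.4, of cytosolic class II, was already bright in control plants and read 12.35, 12.28 and 12.41 in heated plants, against 10.57, 10.60 and 10.66 in control plants, with the smallest rise of the 5 at 1.73 ± 0.08. Leer-sHSP and HSP17.4 are the 2 of the 5 named only through the drought table, and both were called.

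Larger chaperones followed with a smaller rise, and 6 of 9 were higher, with none lower and a median of 1.28. ER21, a cognate HSP70 whose title calls it ethylene-responsive, read 11.43, 11.18 and 11.49 in heated plants, against 8.93, 8.96 and 8.87 in control plants, a rise of 2.45 ± 0.10 or 5.46-fold (adjusted p = 2.36e-08). BiP/grp78, the HSP70 of the endoplasmic reticulum, had 9.87, 9.98 and 9.93 in heated plants, against 7.92, 7.97 and 7.72 in control plants. It rose by 2.06 ± 0.09 (adjusted p = 5.17e-08), and its groups stood wide apart. The HSP90 probe set read 6.29, 6.68 and 6.22 in heated plants, against 4.27, 4.16 and 4.24 in control plants; the control arrays lay in the reporter range, so the rise was at least 1.43. A separate HSP90 gene, LeHsp90-1, was bright in both groups with 11.86, 11.85 and 11.82 in heated plants, against 10.46, 10.57 and 10.66 in control plants, and rose by 1.28 ± 0.08. Both genes code for the chaperone that matures kinases and receptors.

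Among the DnaJ-type partners of HSP70, t19-8 rose by 1.11 ± 0.08 (adjusted p = 1.86e-06). LOC543595 rose by at least 1.68 in 1 of its 2 probe sets, and the other showed 0.11. The remaining 3 members were not called: Lehsp90-2 at 0.11, the chloroplast chaperonin leCpn21 at 0.38 and DNAJ at -0.08. Of the 3 members named only through the drought table, 1 was called.

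ER24, a coactivator of the multiprotein bridging factor 1 type that links transcription factors to the basal machinery, read 12.25, 12.27 and 12.27 in heated plants, against 9.00, 8.94 and 8.65 in control plants. The heated arrays were nearly identical and stood 3.40 ± 0.10 above control, 10.5-fold (adjusted p = 4.25e-09). No gene titled as a heat stress transcription factor was among the named probe sets.

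**Figure D2:**
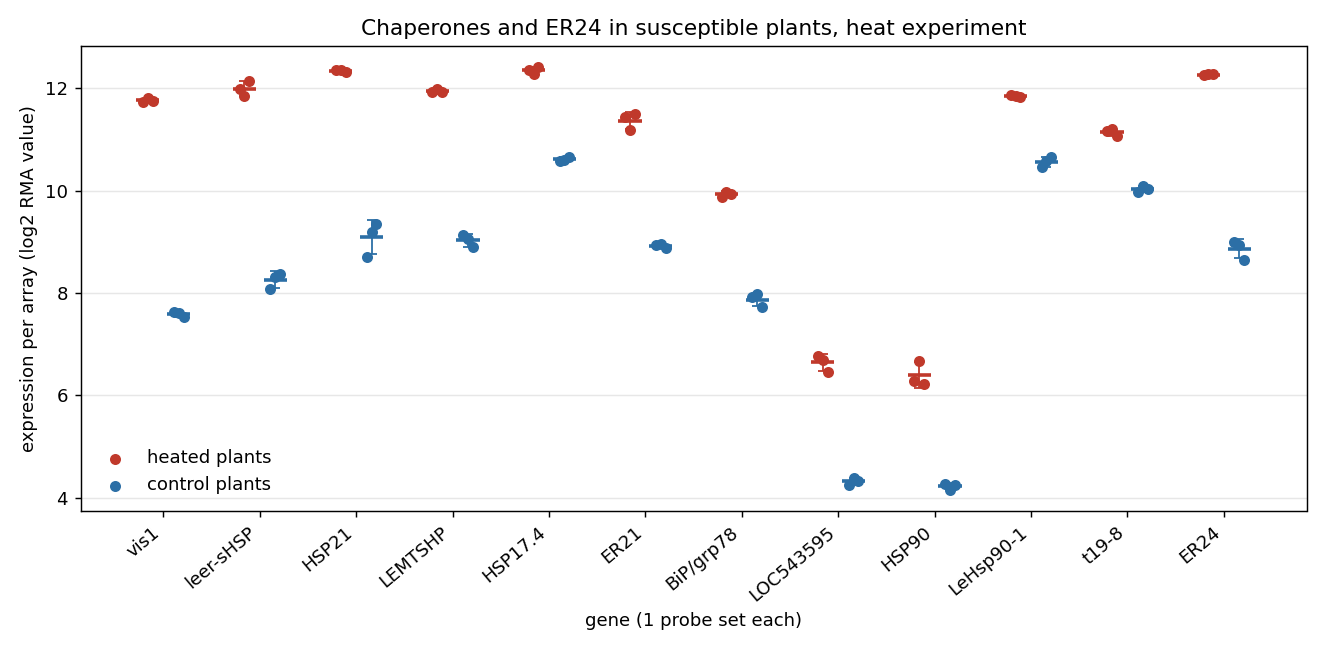
Points are log2 levels on single arrays, heated plants (red) left of control plants (blue), with the mean as a bar and the SD as a whisker (n = 3 each). In all 12 genes every heated array lies above every control array, and the gap ranges from 1.11 in t19-8 to 4.17 in vis1. Only genes called higher are drawn and uncalled chaperones are left out, so the lack of overlap follows from the choice. Of all probe sets, 54.8% had groups without overlap. Control arrays of HSP90 and LOC543595 lie at background, where the drawn gap is not a measured size. Levels of different genes are not comparable.

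Other genes with large rises belong to different lists or to none. SAR2, the small GTPase that starts coat assembly on vesicles leaving the endoplasmic reticulum, read 10.79, 10.86 and 10.76 in heated plants, against 8.10, 8.06 and 7.92 in control plants, and rose by 2.78 ± 0.08 (adjusted p = 4.26e-09). ERabp1, an auxin-binding protein of the endoplasmic reticulum, had 10.45, 10.56 and 10.39 in heated plants, against 7.64, 7.61 and 7.59 in control plants, a rise of 2.85 ± 0.08. BI-1, a Bax inhibitor of that same membrane known to restrain cell death, rose by 1.49 ± 0.07. P58IPK (LOC543872), a DnaJ-type protein, was called at 1.15, but its level was so close to the reporter range that the bound was -0.02 and no size can be given. The elongation factor LOC544055, titled EF 1-alpha, read 10.61, 10.58 and 10.56 in heated plants, against 7.48, 7.58 and 7.43 in control plants, and rose by 3.09 ± 0.08 (adjusted p = 1.67e-09). A control probe set of the array for the 3' end of EF1-alpha differed by -0.02. Of the 5 translation genes it was the only one called.

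The list of sugar and starch use tended upward: 7 of 16 were higher, none was lower, and the median was 0.78. It also holds PPCK1 and PPCK2, which are not sugar or starch enzymes and are counted among the kinases too. Of all probe sets 4.32% were higher. Sucrose synthase sus3, which splits sucrose into fructose and UDP-glucose, read 10.20, 10.45 and 10.23 in heated plants, against 8.22, 8.21 and 8.26 in control plants, a rise of 2.07 ± 0.09 (adjusted p = 4.43e-08). The beta-amylase bmy3, which frees maltose from starch, had 10.88, 11.04 and 10.90 in heated plants, against 8.93, 9.05 and 9.01 in control plants, and rose by 1.94 ± 0.08. Bmy3 was the 1 call among the 7 members named only through the drought table, whose median was 0.31. PPCK1 and PPCK2, kinases that phosphorylate phosphoenolpyruvate carboxylase and so relieve its inhibition by malate, moved alike. PPCK1 read 8.31, 8.51 and 8.21 in heated plants, against 5.95, 6.01 and 6.27 in control plants, and PPCK2 read 7.53, 7.75 and 7.57 in heated plants, against 5.05, 5.43 and 5.52 in control plants. Their rises were 2.27 ± 0.11 and 2.28 ± 0.12. The hexose carriers HT2 and ht1 rose by 1.66 ± 0.09 and 1.28 ± 0.08, and the fructokinase Frk1 by 1.61 ± 0.10. Sucrose-phosphate synthase (sps, 0.58), the cell-wall invertase LIN7 (0.37) and the acid invertase Wiv-1 (-0.46) were not called.

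**Figure D3:**
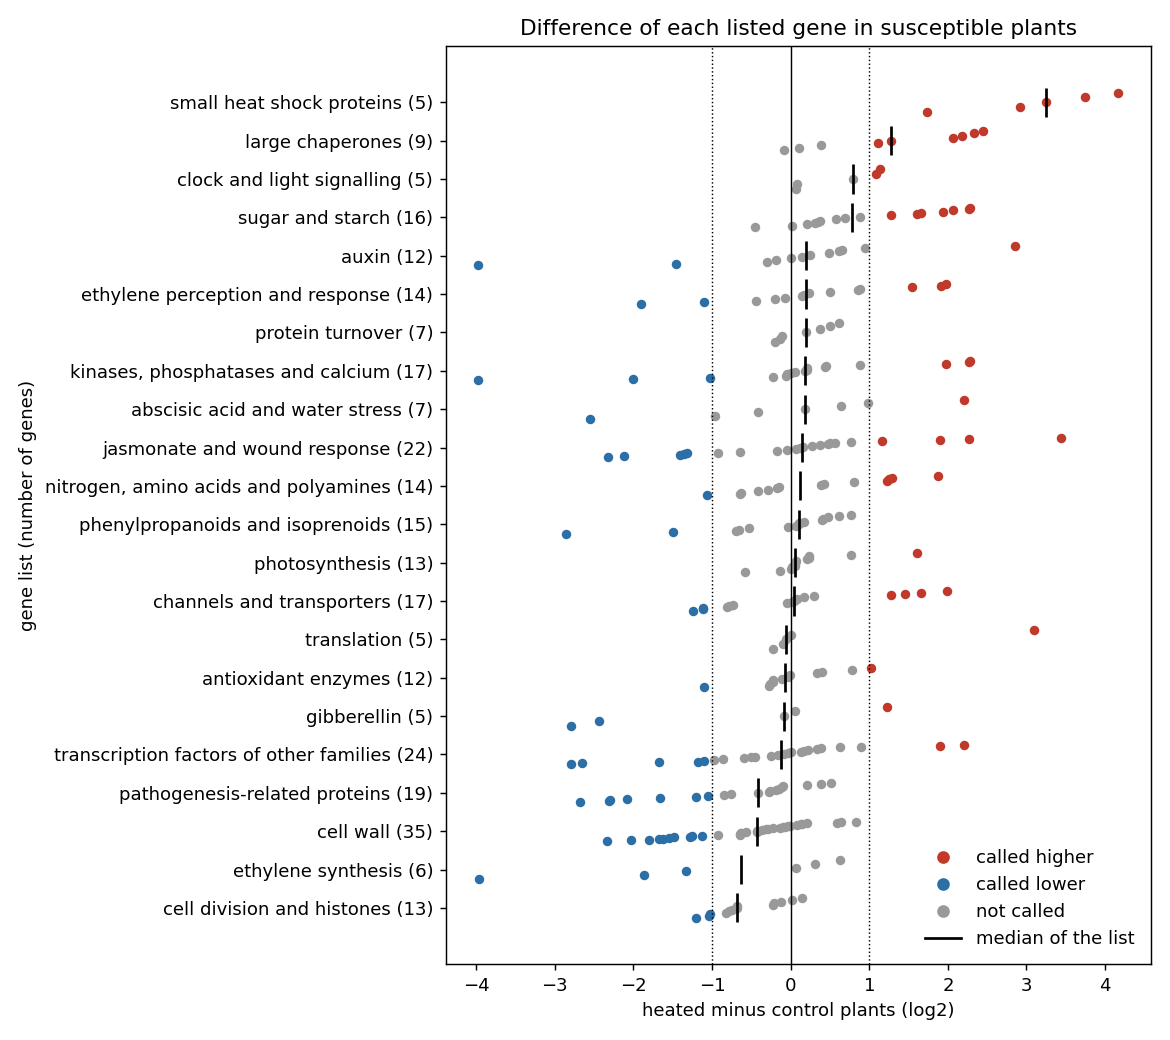
Each point is a gene placed by heated minus control plants (log2) in the row of its list, for the lists with at least 5 genes; black bars are list medians and dotted lines mark a difference of 1. The 5 small heat shock proteins all lie right of 1, and the called genes of the cell wall, PR protein, ethylene synthesis and cell division lists all lie left of -1.

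In the ethylene synthesis list 3 of 6 genes were lower, none was higher, and the median was -0.63. ACC synthases make the precursor of ethylene, and all 3 named ones were lower, while the 3 ACC oxidases (ACO1 at 0.63, ACO6 at 0.31 and EFE at 0.07) were not called. The 3 lower genes are heat-table names, and EFE is the 1 member named only through the drought table. ACS7B read 4.21, 4.25 and 4.03 in heated plants, against 8.25, 7.98 and 8.16 in control plants. Heated arrays lay in the reporter range, so the difference was -3.41 or lower, at an adjusted p of 1.56e-09. ACS6 stayed well measured in both groups, with 9.89, 10.04 and 9.85 in heated plants, against 11.76, 11.83 and 11.79 in control plants, a difference of -1.87 ± 0.08 (adjusted p = 5.37e-08). LE-ACS3 dropped to the reporter range, with a bound of -1.25.

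Ethylene perception was mixed, with 3 of 14 genes higher and 2 lower and a median of 0.20. Both called receptors were higher, ETR4 by 1.97 ± 0.11 and Never-ripe by 1.54 ± 0.10, whereas ETR6 stood at -0.44 and was not called. Such receptors repress the pathway until they bind ethylene. ETR4 read 8.39, 8.79 and 8.52 in heated plants, against 6.58, 6.65 and 6.55 in control plants. The binding factor EREB rose by at least 1.73. PTI5, a response factor that binds the resistance kinase Pto and drives PR genes, went down, with 8.99, 9.16 and 9.14 in heated plants, against 11.01, 11.04 and 10.94 in control plants, a difference of -1.90 ± 0.08 (adjusted p = 4.72e-08). ERF3 differed by -1.10 ± 0.10.

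The jasmonate and wound list moved both ways, with 4 of 22 genes higher and 5 lower and a median of 0.14. Enzymes of the early synthesis pathway were among those lower. The lipoxygenase loxD, which starts jasmonate synthesis from linolenic acid, read 8.75, 8.83 and 8.66 in heated plants, against 11.08, 11.11 and 11.05 in control plants, a difference of -2.33 ± 0.08 or 5.04-fold lower (adjusted p = 9.85e-09). Allene oxide synthase (aos), the next enzyme, had 9.34, 9.44 and 9.28 in heated plants, against 10.72, 10.65 and 10.65 in control plants, a difference of -1.32 ± 0.08. It is the 1 lower call among the 10 members named only through the drought table. LEJA3, titled jasmonic acid 3, read 9.15, 9.32 and 9.22 in heated plants, against 11.40, 11.36 and 11.27 in control plants, a difference of -2.12 ± 0.08. The carboxypeptidase inhibitor mcpi differed by -1.41 ± 0.08, and the proteinase inhibitor ER1 by -0.56 or lower.

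On the higher side of that list, LOC543954, proteinase inhibitor I, read 9.34, 9.48 and 9.20 in heated plants, against 5.99, 5.98 and 5.72 in control plants, and rose by 3.44 ± 0.10 (adjusted p = 4.87e-09). Its other probe set showed -0.13, so the gene cannot be given a single value. Threonine deaminase Td, which starts isoleucine synthesis and is induced by jasmonate in tomato, rose by 2.27 ± 0.08, with 10.72, 10.80 and 10.69 in heated plants, against 8.48, 8.50 and 8.42 in control plants. LEJA2 rose by 1.90 ± 0.08 and the reductase opr2 by 1.16 ± 0.09. Prosystemin, the precursor of the wound peptide systemin, was not called at 0.16.

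Pathogenesis-related (PR) proteins, secreted proteins that accumulate on infection, were lower where they were called at all: 7 of 19 fell, none rose, and the median was -0.41. The beta-1,3-glucanase GluB, which cuts fungal wall glucans, read 5.18, 4.59 and 4.41 in heated plants, against 7.50, 7.46 and 7.26 in control plants, and its difference was -2.55 or lower (adjusted p = 8.25e-07). The thaumatin-like gene pr p23 had 5.06, 5.53 and 4.90 in heated plants, against 7.49, 7.42 and 7.51 in control plants, a difference of -2.31 ± 0.14 (adjusted p = 6.07e-07). P69B, a subtilisin-like protease of the leaf apoplast, fell into the reporter range, with a difference of -1.54 or lower. NP24-I, a close relative of osmotin, read 4.96, 4.60 and 4.25 in heated plants, against 6.68, 6.65 and 6.73 in control plants, a difference of -2.08 ± 0.15. Of its heated arrays 1 lay under the reporter limit and 1 only just above it, so the size is uncertain. PR-P69 differed by -1.66 ± 0.12, the chitinase CHI9 by -1.20 ± 0.09, and PR-5 by -0.34 or lower. PR-5 was the only call among the 12 members named only through the drought table, and the PR-1 proteins PR1b1 (-0.15) and P4 (-0.10) were not called.

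Further genes called lower are given singly, since they come from different lists or from none and do not form a tested group. MPK3, a MAP kinase of wound and pathogen signalling, read 8.86, 8.92 and 8.66 in heated plants, against 10.86, 10.78 and 10.79 in control plants, a difference of -2.0 ± 0.09 (adjusted p = 6.16e-08), and all 3 of its probe sets were called lower. Wfi1, an oxidase that makes superoxide at the plasma membrane, differed by -1.38 ± 0.09, and the receptor-like Ve2, a paralogue of the Verticillium resistance protein, by -1.82 ± 0.11. The MAPK kinase LeMKK3 differed by -1.02 ± 0.10 and lost its call without heated replicate 3 (-0.92). THT1-3, which joins hydroxycinnamic acids to tyramine for wall-bound defence amides, read 8.00, 7.90 and 8.07 in heated plants, against 10.94, 10.79 and 10.81 in control plants, a difference of -2.86 ± 0.08 (adjusted p = 4.26e-09). A second THT1-3 probe set was 0.93 and pointed the other way. Asc, which gives resistance to Alternaria stem canker, differed by -1.51 ± 0.09.

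Of the 17 kinase, phosphatase and calcium genes 3 were higher and 3 lower. The higher ones were both PPCK genes and the calmodulin CALM1LE, a calcium sensor, at 1.97 ± 0.09, and all 3 of its probe sets were called, between 1.91 and 2.17. LOC543684, titled as an auxin-regulated kinase and counted in the auxin list too, fell into the background. It read 3.27, 4.13 and 3.93 in heated plants, against 7.66, 7.80 and 7.81 in control plants, and since heated plants lay in the reporter range the difference was -3.04 or lower (adjusted p = 7.28e-08). LOC543942, titled regulator of gene silencing, read 7.03, 7.25 and 7.22 in heated plants, against 10.04, 10.04 and 9.77 in control plants, a difference of -2.78 ± 0.10, and its other probe set was called lower as well. LOC543817, which has no informative title, had 6.89, 7.23 and 7.10 in heated plants, against 9.57, 9.66 and 9.53 in control plants, a difference of -2.51 ± 0.10.

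**Figure D4:**
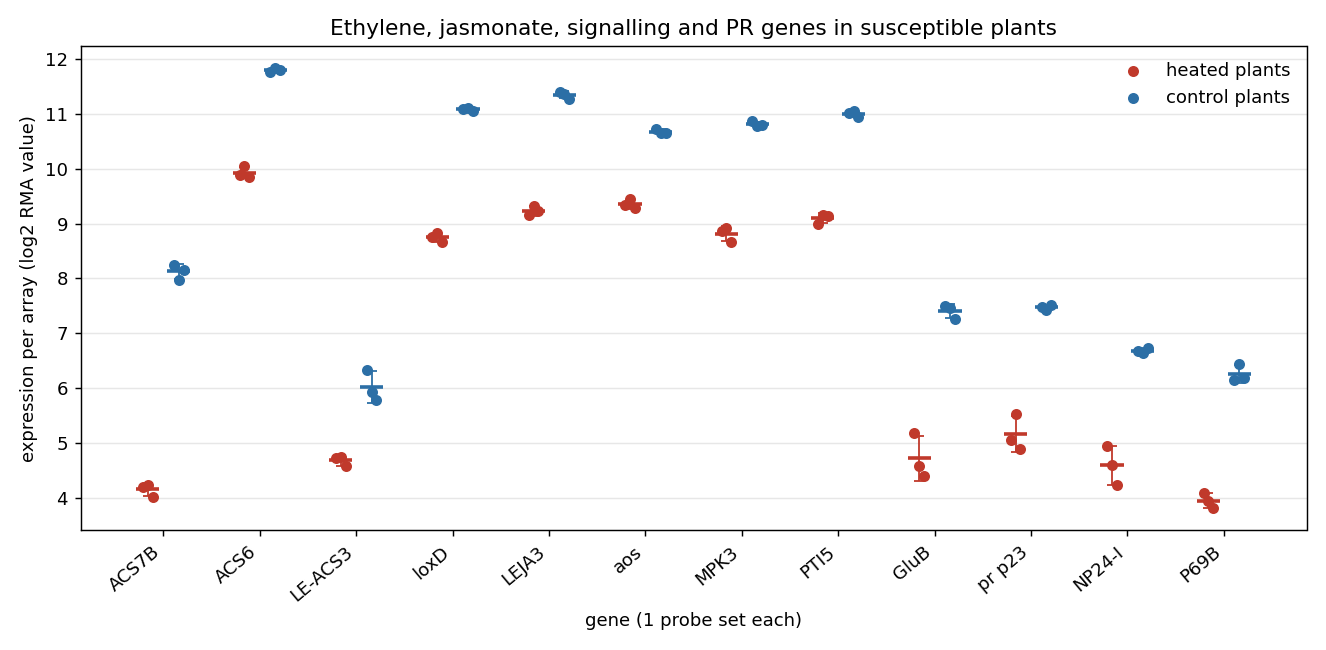
Points are log2 levels on single arrays, heated plants (red) left of control plants (blue), with the mean as a bar and the SD as a whisker (n = 3 each). Every heated array lies below every control array in all 12 genes, while groups without overlap made up 54.8% of all probe sets. All or most heated arrays of ACS7B, LE-ACS3, GluB and P69B lie at background, where the drawn gap is not a measured size.

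Of 35 named cell wall genes 10 were lower and none was higher, with a median of -0.43. All 10 are heat-table names, and 0 of the 17 members named only through the drought table were called in either direction. Xyloglucan endotransglucosylase-hydrolases, which cut and rejoin wall xyloglucan chains, made up 6 of the 10. The gene tXET-B1 read 8.07, 8.37 and 7.97 in heated plants, against 10.44, 10.45 and 10.56 in control plants, a difference of -2.34 ± 0.11 or 5.07-fold lower (adjusted p = 7.28e-08). Its relative tXET-B2 had 9.36, 9.65 and 9.38 in heated plants, against 11.60, 11.51 and 11.38 in control plants, a difference of -2.03 ± 0.10. XTH16 differed by -1.67 ± 0.08, XTH3 by -1.62 ± 0.09, XET4 by -1.55 ± 0.15 and XTH9 by -1.28 ± 0.08, while XTH5 (0.08) and XTH7 (-0.41) were not called. In a fit of all 4 heat groups with 1 shared spread, XTH16 lost its call (adjusted p = 0.0664). The endoglucanases Cel1 and cel5 differed by -1.80 ± 0.08 and -1.13 ± 0.09, the wall-loosening expansin exp18 by -1.49 ± 0.10, and the pectin methylesterase PMEU1 by -1.26 ± 0.08. Expansins LeEXP2 (0.83) and exp11 (0.64) were not called.

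Cell division genes leaned the same way at lower size. Of 13 genes 3 were lower, none was higher, and the median was -0.68. The kinesin TKR read 6.08, 6.15 and 6.16 in heated plants, against 7.39, 7.39 and 7.20 in control plants, a difference of -1.20 ± 0.08 (adjusted p = 1.63e-06). Histone H2B-2 and the cyclin CycA1 passed the size limit narrowly, at -1.04 ± 0.09 and -1.02 ± 0.08. Without heated replicate 1 both fell short and TKR alone remained. The mitotic kinases cdkB1 (-0.82) and cdkB2 (-0.68) and cyclin CycA2 (-0.78) were not called.

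Other growth hormones showed single large changes. SlGA2ox3, which inactivates gibberellin, read 3.83, 4.36 and 4.08 in heated plants, against 6.53, 6.68 and 6.39 in control plants, a difference of -1.81 or lower (adjusted p = 2.51e-07). The synthesis enzyme 20ox-1 rose by 1.22 ± 0.10, and the regulator GRAS1 had 5.93, 6.12 and 5.91 in heated plants, against 8.91, 8.66 and 8.78 in control plants, a difference of -2.79 ± 0.10. Dwarf, the oxidase late in brassinosteroid synthesis, rose by 2.00 ± 0.10, and both of its probe sets were called. In the auxin list 1 of 12 genes was higher and 2 were lower. The 2 lower ones were LOC543684 and LOC543701, titled auxin-regulated protein, at -1.46 ± 0.08, and none of 8 IAA repressors was called (-0.30 to 0.94).

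Among 7 genes of abscisic acid and water stress 1 was higher and 1 lower. DREB1, a factor that binds the dehydration-responsive element, read 7.79, 8.09 and 7.91 in heated plants, against 5.58, 5.99 and 5.63 in control plants, a rise of 2.20 ± 0.12 (adjusted p = 3.25e-07). ASR1, a small protein linked to abscisic acid, water stress and ripening, read 8.53, 8.35 and 8.18 in heated plants, against 10.90, 10.72 and 11.10 in control plants, a difference of -2.55 ± 0.12. A second ASR1 probe set showed -0.14. ASR1 and DDTFR10/A, a ripening-regulated gene at -2.15 ± 0.08, were the 2 of 6 fruit markers called, and the summed signal of that list was 11.23 to 11.36 in heated and 12.41 to 12.51 in control plants (log2); 1 of the 6 was at reporter level in heated and control plants alike, and the list's part in these results was not tested. NCED1, which catalyses the limiting step of abscisic acid synthesis, was not called at -0.96, nor was the dehydrin TAS14 at 0.64.

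Transcription factors of other families gave 2 higher and 5 lower calls of 24, with a median of -0.12, and DREB1 and GRAS1 are counted among them. WRKYIId-2 read 5.00, 5.52 and 5.23 in heated plants, against 8.08, 7.87 and 7.78 in control plants, a difference of -2.66 ± 0.13 (adjusted p = 1.31e-07). The myb-related THM16 differed by -1.68 ± 0.10, and the leaf growth regulator TCP3 by -1.18 ± 0.11. WRKY2 rose by 1.90 ± 0.10 in 1 of its 2 probe sets and showed -0.21 in the other. CIP1 and CIP2b, which bind the flowering regulator CONSTANS, were the 2 of 5 clock and light genes called, at 1.08 ± 0.14 and 1.14 ± 0.08; CIP1 lost its call without control replicate 2 (0.97).

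Nitrogen and amino acid genes gave 4 higher and 1 lower calls of 14. Asparagine synthetase AS1 read 8.11, 8.19 and 8.00 in heated plants, against 6.37, 6.29 and 6.01 in control plants, a rise of 1.88 ± 0.10 (adjusted p = 3.15e-07). Cystathionine gamma synthase (CGS), on the way to methionine, rose by 1.29 ± 0.08, proline dehydrogenase (PDH) by 1.25 ± 0.10, and the GABA transaminase GABA-TP1 by 1.23 ± 0.11. LOC778303, a subunit of the branched-chain keto acid dehydrogenase, differed by -1.06 ± 0.11 and lost its call without heated replicate 1 (-0.96). Of 17 channels and transporters, 4 were higher and 3 lower. The mitochondrial ADP/ATP carrier LOC544050 read 12.23, 12.26 and 12.18 in heated plants, against 10.20, 10.24 and 10.26 in control plants, a rise of 1.99 ± 0.07, and the cation/proton exchanger nhx3 rose by 1.45 ± 0.08. The amino acid carrier LeAAP2, the proline carrier LeProT2 and the potassium channel LKT1 differed by -1.24 ± 0.09, -1.11 ± 0.09 and -1.11 ± 0.12.

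Of 13 photosynthesis genes 1 was called, near the 7.67% of all probe sets, and the median was 0.06. Named only through the drought table were 11 of the 13, with 0 of them called higher and 0 lower. The call was PSBR, a protein of photosystem II, with 8.92, 9.06 and 8.91 in heated plants, against 7.13, 7.50 and 7.43 in control plants, a rise of 1.61 ± 0.11 (adjusted p = 1.03e-06). The light-harvesting genes CAB4 (0.01), CAB5 (0.07) and CAB6A (-0.14) were not called. Antioxidant enzymes gave 1 higher and 1 lower call of 12, where 4.32% of all probe sets were higher and 3.35% lower. These were APX2 at 1.02 ± 0.08 in 1 of 3 probe sets and BI-GST/GPX at -1.10 ± 0.09. APX2 lost its call under centring (0.92) and without heated replicate 1 (0.98), and catalase cat1 (-0.23) was not called. In the list of phenylpropanoids and isoprenoids 2 of 15 were lower, THT1-3 and NSY, titled as a lycopene cyclase, at -1.50 ± 0.14. None of 7 protein turnover genes was called; the 2 with the smallest p were LOC543683 (0.61) and LOC544223 (0.50).

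Of the 770 calls, 649 were on probe sets that the sources used here do not pair with 1 gene. Such probe sets make up 9579 of the 10038, and 6.78% of them were called, beside 7.67% of all. The count of 649 therefore reflects how few probe sets have names. The largest rise of all was on such a probe set, which read 11.51, 11.59 and 11.56 in heated plants, against 5.24, 5.14 and 5.07 in control plants, a difference of 6.40 ± 0.08 or 84.5-fold (adjusted p = 3.4e-11). The next of them rose by at least 4.44. On the lower side, the most extreme unnamed probe set read 4.50, 4.48 and 4.56 in heated plants, against 9.58, 9.39 and 9.44 in control plants, a difference of -4.75 or lower, and the next differed by -3.89 ± 0.09.

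The next comparison asked where the response of susceptible plants differed from that of tolerant plants, as the test of the difference between both responses. It was called at an adjusted p under 0.05 for 28.2% of all probe sets. Among probe sets higher in heated susceptible plants, 228 of 434 (52.5%) differed, 185 of them with a smaller rise or a fall in tolerant plants. Median responses of the 434 were 1.49 in susceptible and 1.00 in tolerant plants. Of the 336 lower ones 225 differed (67.0%), 217 in the direction of a smaller fall or a rise in tolerant plants, with medians of -1.38 in susceptible and -0.49 in tolerant plants. Since the sets were chosen by the susceptible response on the same arrays, that choice favours a more extreme median for it. These counts and medians are a description. Tolerant control arrays had a GAPDH gap of 4.78 ± 1.02 and a reporter median of 4.43 ± 0.53 (SD, n = 3), against 1.60 ± 0.09 and 3.54 ± 0.04 in susceptible controls; their part in the differences was not tested. Without tolerant control replicate 1 the counts were 340 positive and 169 negative, against 1645 and 1181 with it, and under centring they were 1277 and 1603.

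The ER24 response was 3.40 in susceptible and 0.70 in tolerant plants, where heated arrays read 8.96, 9.07 and 9.09 and control arrays 8.34, 8.53 and 8.15. Tolerant minus susceptible was -2.69 ± 0.24 (adjusted p = 2.15e-05). Of the small heat shock proteins, HSP17.4 had responses of 1.73 in susceptible and 1.78 in tolerant plants, and leer-sHSP had 3.74 in susceptible and 3.82 in tolerant plants. Their differences of 0.04 ± 0.17 and 0.09 ± 0.25 were not called, nor was that of HSP21 at -0.40 ± 0.35. For LEMTSHP and vis1 tolerant minus susceptible was -1.01 ± 0.21 (adjusted p = 0.00473) and -0.78 ± 0.16 (adjusted p = 0.00487). LEMTSHP, vis1 and HSP21 are heat-table names, chosen on these arrays for a difference between genotypes, and HSP17.4 and leer-sHSP are not, so members cannot be set against each other by their calls. For the 9 larger chaperones tolerant minus susceptible was negative in 6 calls and positive in 1, where 28.2% of all probe sets were called. This largely restates the same choice, since 6 of the 9 are heat-table names. Of the 3 that are not, LeHsp90-1 was called at -0.66 ± 0.23 (adjusted p = 0.0464).

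PPCK1, PPCK2 and DREB1 rose in susceptible plants, and their tolerant responses were below 0. All 3 are heat-table genes, as are the other genes of the plot of both genotypes, and that table was selected for such a contrast. PPCK2 moved by 2.28 in susceptible and -0.89 in tolerant plants (tolerant minus susceptible -3.17 ± 0.31, adjusted p = 4.11e-05), and PPCK1 by 2.27 in susceptible and -0.88 in tolerant plants (-3.15 ± 0.30). DREB1 moved by 2.20 in susceptible and -1.24 in tolerant plants (-3.43 ± 0.37, adjusted p = 8.58e-05). The kinesin TKR had responses of -1.20 in susceptible and -4.41 in tolerant plants (-3.21 ± 0.24).

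In the opposite direction, mcpi moved by -1.41 in susceptible plants and by 2.32 in tolerant plants, whose heated arrays read 9.52, 9.39 and 9.71 and control arrays 7.31, 7.50 and 6.86. The difference was 3.73 ± 0.22 (adjusted p = 1.6e-06). GluB moved by -2.55 or lower in susceptible and 0.63 in tolerant plants, a difference of 3.31 ± 0.41, or 3.13 with arrays raised to the reporter range. GRAS1, ASR1 and XTH16 also had positive differences, of 3.99 ± 0.50, 3.74 ± 0.60 and 3.70 ± 0.55, but their tolerant arrays were scattered. For XTH16 tolerant plants read 10.23, 10.14 and 11.11 when heated and 8.63, 9.95 and 6.82 as controls. GRAS1 lay in the reporter range in tolerant controls, and its difference was 2.79 with arrays raised to that range.

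**Figure D5:**
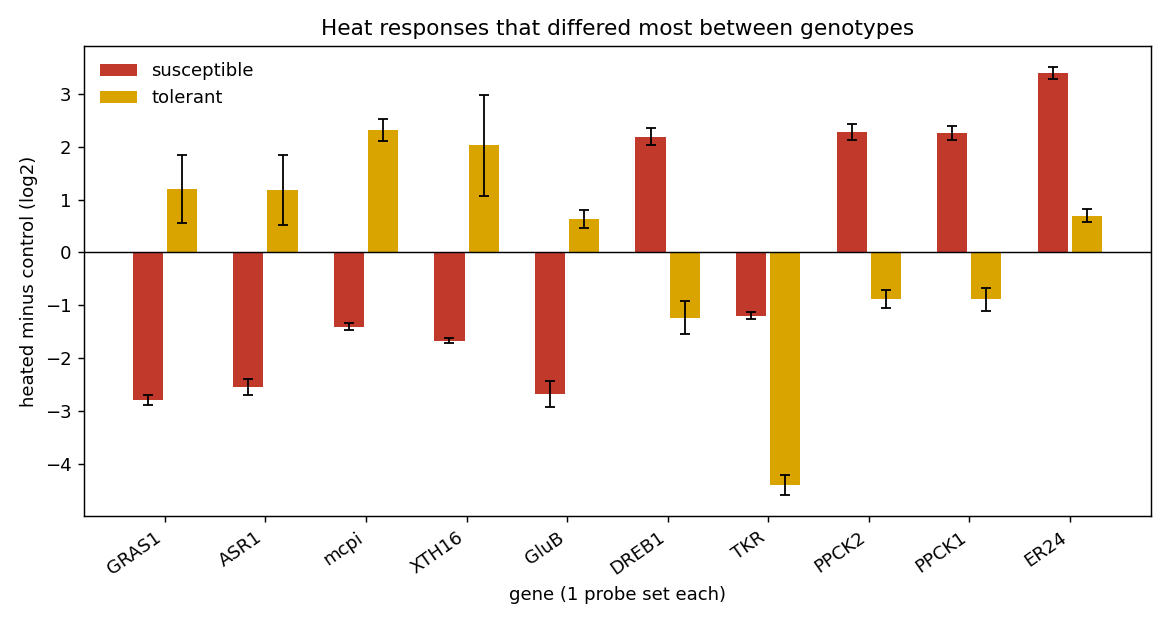
Bars are heated minus control plants (log2), susceptible plants (red) left of tolerant plants (yellow), for the 5 genes with the largest positive and the 5 with the largest negative difference of responses among genes called in susceptible plants; whiskers are the SE of each difference of means from the SDs (n = 3 per group). ER24 reaches 3.40 in susceptible and 0.70 in tolerant plants, and whiskers of tolerant plants are widest for XTH16, ASR1 and GRAS1; the susceptible GluB bar and the tolerant GRAS1 bar include arrays at background.

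Set against the drought response of susceptible plants, the heat response differed for 64.9% of all probe sets. Among those higher under heat 370 of 434 differed (85.3%), and among those lower 305 of 336 (90.8%). Median responses were 1.49 under heat and 0.68 under drought for the higher set, and -1.38 under heat and -0.40 under drought for the lower set. These too are a description of sets chosen under heat. Experiment, genotype and kind of stress cannot be told apart here, and each experiment had its own controls.

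Chaperones separated by member. HSP17.4 rose by 1.73 under heat and moved by -2.74 under drought, where droughted plants read 7.67, 7.77 and 7.70 and watered plants 10.47, 10.44 and 10.45. The difference was 4.48 ± 0.09 (adjusted p = 4.57e-14). ER24 moved by 3.40 under heat and -1.35 under drought, a difference of 4.75 ± 0.13. HSP21 was the 1 small heat shock protein with a negative difference, with responses of 3.25 under heat and 4.96 under drought (-1.71 ± 0.18, adjusted p = 1.43e-06). Its mean level was 12.34 in heated plants and 9.09 in their controls, against 10.89 in droughted and 5.93 in watered plants. The larger response under drought thus started from a lower control level and ended below the level of heated plants. For vis1 the responses were 4.17 under heat and 3.01 under drought (1.16 ± 0.09).

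Among the named genes with the largest differences between heat and drought, TPP3, titled a flower-specific thionin-like protein, rose by 1.20 under heat and moved by -5.35 under drought, with a difference of 6.55 ± 0.14, or 5.94 with arrays raised to the reporter range. The hexose carrier ht1 had 1.28 under heat and -3.62 under drought (4.90 ± 0.11), and histone H2B-2 had -1.04 under heat and -5.48 under drought (4.45 ± 0.15). Some PR genes took opposite directions. NP24-I moved by -2.08 under heat and 4.06 under drought, where droughted plants read 11.42, 11.45 and 11.50 and watered plants 7.55, 7.23 and 7.41 (difference -6.14 ± 0.18, adjusted p = 2.09e-12). GluB, with 2 of its 3 heated arrays in the reporter range, had -2.55 or lower under heat and 2.89 under drought, a difference of -5.57 ± 0.19, or -5.44 with arrays raised to the reporter range. P69B and the inhibitor ER1 did likewise, with differences of -6.14 ± 0.15 and -5.89 ± 0.20, or -5.18 and -5.09 with arrays raised to the reporter range. LOC543684 moved by -3.04 or lower under heat and 1.08 under drought, a difference of -5.06 ± 0.20, or -4.12 when raised. Over the 19 PR genes heat minus drought was negative in 16 calls and positive in 2, beside 64.9% of all probe sets called in either direction. This is a description only, because 12 of the 19 are named through the drought table alone, which was chosen on the drought arrays.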

How the data were processed

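Total RNA from leaves was taken with Trizol, labelled with biotin and hybridised to 1-colour Affymetrix tomato arrays, per the labels' protocols. Per the submitters' processing notes, the authors ran RMA 1.0 in Affymetrix Expression Console, and the deposited matrix holds the resulting log2 level of every probe set. For each experiment there is in addition a deposited table of fold changes as linear ratios, restricted per the file headers to a significant interaction of genotype with treatment and a fold of 2 or more. An annotation version is named in none of the sources used here. Only names were used from them: the folds of the heat table had the same direction as the values here for 1165 of 1205 probe sets, but only 560 matched within 0.05 log2, and the largest gap was 0.68.

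The value table held 10209 probe sets, of which 108 AFFX controls and 63 reporters were left out, with no filter on low values. The heat response was fitted on its 6 arrays with limma 3.58.1 in R 4.3.3 (lmFit and eBayes), with Benjamini-Hochberg adjustment over 10038 probe sets. Differences of responses were fitted over 4 groups with array weights per group. Where at least 2 of 3 arrays of the dimmer group did not exceed the reporters' 95th percentile, values under it were raised to it and the difference given as a bound. In simulated data 100 probe sets were changed at each size, and recovery was counted at an adjusted p under 0.05 without the size limit. Counted so, the heat fit recovered 93% of changes of 1 log2 and 99% of changes of 2, and it called 0.12% of unchanged probe sets. These rates do not describe the heat calls, which also required a difference of at least 1. In the data 44.1% of probe sets passed the same p. The fit of tolerant minus susceptible recovered 35% of differences of 1 log2 and 97% of 2, and called 0.52% of unchanged probe sets, so it misses most differences of 1. The fit of heat minus drought recovered 96% and 100% and called 0.26%. The number of arrays limits the precision.

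The tables gave 459 probe sets 1 symbol and 15 several, which were not named, and 9564 had none. Of 152 locus symbols looked up in RefSeq, 67 received another symbol. For each gene the probe set with the smallest p was used. Genes named are the 15 largest increases and 15 largest decreases among calls, up to 4 per direction from each list (or the 2 smallest p where none was called), 5 per direction for each difference of responses that were also called under heat, and 2 unnamed probe sets per direction. A few uncalled or called list members beyond that rule were chosen after their values were seen. So were BI-1, P58IPK, Wfi1, Ve2, Asc and Dwarf, which the rule did not pick and which are in no list. The comparison and the lists were chosen with earlier results of these data known, and list members were edited after gene titles were read. Root and seed marker lists matched no probe set. Of 5 flower markers 2 were at reporter level in heated and control plants alike and 1, TPP3, was called; the list's summed signal was 9.85 to 10.05 in heated and 10.07 to 10.17 in control plants (log2).

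The labels name no shared batch, so the main fit did not pair arrays by replicate number. Deviations of same-numbered heated and control arrays correlated at 0.124, 0.213 and 0.084, and those of the other pairs at -0.233 to 0.061. Alternatives were repeated quantile normalization, centring, removal of the dimmest 25% of probe sets, a replicate block, a trended prior, a test against a difference of 1, a fit of all 4 heat groups, unweighted arrays, a stricter reporter limit and leaving out each replicate.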

Additional observations from a re-analysis of the deposited data

Results flagged for a closer look

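Differences of responses, each by the test of the difference itself, are listed for a closer look where a gene called under heat in susceptible plants was among the 5 most positive or 5 most negative. Between genotypes, tolerant minus susceptible, they were 3.99 for GRAS1, 3.74 for ASR1, 3.73 for mcpi, 3.70 for XTH16 and 3.31 for GluB. With arrays raised to the reporter range GRAS1 was 2.79 and GluB 3.13, while ERF3, at 3.08, was not among the 5, so the place of GRAS1 rests on arrays at background. On the negative side they were -3.43 for DREB1, -3.21 for TKR, -3.17 for PPCK2, -3.15 for PPCK1 and -2.69 for ER24. Raising arrays to the reporter range moved LOC543595 from -2.43 to -2.85 and HSP90 from -2.57 to -2.79, and left ER24 at -2.69. The place of ER24 among the 5 therefore depends on how background is treated. Between stresses, heat minus drought in susceptible plants, they were 6.55 for TPP3, 4.90 for ht1, 4.75 for ER24, 4.48 for HSP17.4 and 4.45 for H2B-2. The most negative were -6.14 for NP24-I, -6.14 for P69B, -5.89 for ER1, -5.57 for GluB and -5.06 for LOC543684. Raised to the reporter range these were -5.96, -5.18, -5.09, -5.44 and -4.12, and TPP3 was 5.94. Their order is therefore not settled, and LOC543817, at -4.49, would stand before LOC543684. All 20 kept their call under every alternative run for that test, leaving out single replicates included.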

How the results depend on the processing

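No named gene changed sign under any alternative run, but centring turned the balance of directions, to 375 higher and 415 lower probe sets under heat (434 and 336 without it) and to 1277 positive and 1603 negative differences between genotypes (1645 and 1181 without it). Repeated quantile normalization left 0 antioxidant genes higher and 2 abscisic acid genes lower. Centring gave 3133 probe sets lower at any size, 0 antioxidant genes higher, 2 abscisic acid genes lower and 1 clock gene higher. Testing against a difference of 1 in place of 0 left 255 higher and 173 lower probe sets, and by list 0 antioxidant genes in either direction, 1 ethylene perception gene lower, 0 gibberellin genes higher, 0 cell division genes lower, 1 nitrogen gene higher and 0 lower, 1 phenylpropanoid gene lower, 3 other transcription factors lower, 0 transporters lower and 0 clock genes higher. The fit of all 4 heat groups gave 1227 higher and 927 lower at any size, and 752 of the 770 calls were shared. Without the dimmest 25% of probe sets, 750 differences between genotypes were negative. With the 99th percentile of reporters 167 calls became bounds, against 108.

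Leaving out 1 replicate at a time gave 413 to 455 higher and 321 to 371 lower probe sets. For lists it gave 0 to 1 antioxidant genes higher, 1 to 2 auxin genes higher, 1 to 2 abscisic acid genes in either direction, 1 to 3 cell division genes lower, 0 to 1 nitrogen genes lower and 1 to 2 clock genes higher. Differences between genotypes ranged from 340 to 1841 positive and from 169 to 1259 negative. The replicate block gave 434 higher and 336 lower probe sets, all 770 shared with the fit without pairing, and 2536 and 2171 at any size; each heated array correlated best with the control of its own number, a hint from the data and not the design. It changed no call of a named gene. Of 83 named calls, 24 missed the test against a difference of 1 and 1 or 2 missed under quantile normalization, centring or the 4-group fit. The cause of these changes was not tested. Signal over background limits the 108 bounds.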

Other observations

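Further named genes outside the lists rose in heated susceptible plants. Pirin (LOC543607) read 8.76, 9.01 and 8.84 in heated plants, against 6.87, 7.09 and 7.01 in control plants, a rise of 1.88 ± 0.09. The dioxygenase LeODD rose by 1.83 ± 0.13, the alcohol dehydrogenase ADH2 by at least 1.30, and MT3, a metallothionein-like gene, by 1.75 ± 0.09 in 1 of its 2 probe sets, with -0.30 in the other. TSW12 rose by 1.49 ± 0.08, ChrC, a plastid lipid associated protein, by 1.31 ± 0.08, and the alkaline alpha-galactosidase SIP by 1.10 ± 0.08. TFHS1, titled a heat shock protein but in neither chaperone list, was not called at -0.07.

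Lower in heated plants were the subtilisin-like proteases SBT2 at -1.48 ± 0.08 and sbt3 at -1.24 ± 0.11, the acid phosphatase PAP1 at -1.06 ± 0.09 and dem at -1.02 ± 0.08. These genes were chosen after their values were seen.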
